A study of Mus musculus with 12 samples.

Results

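The MYC, MAX and MXD network is a set of transcription factors that share MAX as a common partner. Its 10 genes, Myc, Mycn, Mycl, Max, Mxd1, Mxd3, Mxd4, Mxi1, Mnt and Mlx, were taken by symbol from a table of 19037 genes, and 10 of 10 were found. They were measured by RNA-seq in AML12, an immortalised mouse hepatocyte line, in 12 libraries of total RNA, 3 in each of 4 groups. Control libraries are coded GFP, a term left unexplained in the labels. The FK228 group, titled HDI in the labels, received FK228 (romidepsin, an inhibitor of class I histone deacetylases, or HDACs) and carries the same GFP code. The YF group overexpressed YF mutants of class I HDACs without the inhibitor, and the last group received FK228 on top of YF overexpression. The sources used here do not give doses, times, the vector or the HDACs mutated, and 1 cell line stands for hepatocytes throughout. Mxd1 was selected on its measured expression in these same libraries, where it was high in the combination group alone, so the members were chosen by a readout of this experiment. Its values over the 4 groups are therefore given as a description, with no test.

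MAX binds DNA at the E-box CACGTG as a dimer with one partner at a time. With a MYC protein the dimer recruits coactivators and raises transcription of growth genes, ribosome biogenesis among them. With an MXD protein (MXD1, MXI1, MXD3 or MXD4) or MNT it recruits the SIN3 corepressor, which carries class I HDACs, to the same kind of site. MLX is a MAX-like protein that pairs with MNT, some MXD proteins and the glucose-responsive factors MLXIP and MLXIPL. In liver, MYC is known for its rise in regeneration and in tumours, and MXD genes for their rise as cells leave the cell cycle.

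The E-box is shown where it lies near the start of a member, since it is the sequence that the members' own proteins bind. RefSeq (GRCm38.p6) gave 11 promoter windows of 300 bases for 9 members, and none for Myc. The windows were searched for CACGTG, which reads the same on both strands. It was found in the windows of 4 of these 9 members, Max, Mxd4, Mnt and Mlx. Of 32851 windows of 27025 genes 7.15% held it, which is a share of windows and not of genes. The stretches below run 5′ to 3′ on the strand of the gene, with the E-box in capitals. They lie at chr12:76962234-76962263 (minus strand), chr5:34187912-34187941 (minus), chr11:74830789-74830818 (plus) and chr11:101087238-101087267 (plus). None of the 4 E-boxes falls in a feature of the same gene in GENCODE M21, and that of Max spans the start on which its promoter window is set. RefSeq's extents of Max and Mlx begin at an earlier start, so both E-boxes lie inside them.
Max: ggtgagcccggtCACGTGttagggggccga
Mxd4: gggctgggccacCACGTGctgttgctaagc
Mnt: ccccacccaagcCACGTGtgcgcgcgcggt
Mlx: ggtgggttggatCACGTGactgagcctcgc
Of these 4 genes, Max and Mlx were higher and Mxd4 and Mnt lower with both treatments than in control, so members with the motif moved in both directions.

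The Mxd1 window held no E-box and was 76.7% G and C. The windows were also searched for the GC box GGGCGG and its reverse complement CCGCCC, which occur in 35.7% of all windows and do not overlap the E-box. Of the 9 members with a window 7 held a GC box, a count of genes where the 35.7% is a share of windows. There were 8 in Mxd3, 6 in Mxd1, and 4 each in Mnt and in windows 2 and 3 of Mxi1. Of those of Mxd1, 3 lie in the 175 bases upstream of the gene (chr6:86669235-86669409, minus strand), shown because Mxd1 is the gene singled out, with the GC boxes in capitals.
Mxd1: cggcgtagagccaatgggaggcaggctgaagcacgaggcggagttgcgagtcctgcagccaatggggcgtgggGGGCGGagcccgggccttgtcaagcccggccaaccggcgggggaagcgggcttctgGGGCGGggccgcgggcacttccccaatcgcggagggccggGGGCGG
A match of letters in such a window is a description of the sequence, and no binding was measured.

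Libraries held 23664446 to 26122998 estimated counts, and the first 2 principal components held 71.1% and 11.8% of the variance. Of the 11 hepatocyte markers listed, the transcription factor gene Hnf4a stood at 177 ± 7.51 CPM in control, while the albumin gene Alb had 3 counts over the 3 control libraries. The summed level of the hepatocyte markers was 1133 to 1221 CPM in control, 600 to 701 under FK228, 1143 to 1210 under YF and 541 to 574 with both. That of 6 proliferation markers was 991 to 1186, 293 to 300, 1036 to 1245 and 263 to 289 CPM, and 6 of 6 were lower with FK228 (edgeR; 35.5% of all genes). That of 6 macrophage markers was 4.16 to 4.53 CPM in control, 23.7 to 29.7 under FK228, 9.84 to 11.7 under YF and 52.0 to 60.1 with both treatments, mostly through Cd68, with Adgre1 and Clec4f at 0 in control. The 6 stellate cell markers summed to 7.71 to 10.4 CPM in control, 31.6 to 32.9 under FK228, 12.5 to 18.1 under YF and 32.0 to 40.2 with both, so FK228 alone overlapped the combination. Most of that sum was Des, at 7.43 ± 1.13 CPM in control and 26.4 ± 0.908 under FK228, while Acta2 stood at 0.206 ± 0.0966 and 0.246 ± 0.150. The 5 endothelial markers summed to at most 1.49 CPM in any library, and the 4 cholangiocyte markers in the table to 617 to 784 CPM in control, 255 to 273 under FK228, 347 to 392 under YF and 149 to 156 with both. Krt19 made up most of the cholangiocyte sum, at 607 ± 82.6 CPM in control. The part of these shifts in the results below was not tested. The cultures were of 1 cell line, and RNA from whole cultures does not show whether a change lay in all cells or in some.

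Levels of different genes are compared on the deposited TPM scale, which corrects for transcript length. In control, Mxd4 had the highest mean at 36.4 ± 4.00 TPM (mean ± SD, n = 3), followed by Myc at 30.5 ± 2.30, Mxi1 at 29.7 ± 3.21, Mlx at 28.6 ± 1.02 and Max at 26.7 ± 0.944. Mxd3 (9.32 ± 0.685 TPM) and Mnt (9.03 ± 0.687 TPM) formed a middle tier, Mxd1 stood at 1.86 ± 0.329, Mycn at 0.747 ± 0.0751 and Mycl at 0.0433 ± 0.0289. The libraries of Mxi1 overlapped those of Mxd4, Myc, Mlx and Max, those of Myc overlapped Mlx, and those of Mxd3 overlapped Mnt, so the order within these pairs is not set. With both treatments the order was another one. Mxi1 led at 57.6 ± 2.22 TPM, followed by Mlx at 40.7 ± 2.27, Max at 35.3 ± 1.14, Mxd4 at 27.9 ± 2.77 and Myc at 20.6 ± 2.91, and no neighbours among these 5 overlapped. Mxd3 at 7.63 ± 0.359 and Mnt at 7.11 ± 1.05 TPM overlapped again, and Mxd1 reached 4.78 ± 0.527 TPM.

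Changes within a gene are given in CPM, counts scaled by library size with TMM factors, and as log2 fold changes ± SE from an edgeR quasi-likelihood fit to the 12 libraries. Adjusted p-values are Benjamini-Hochberg over the 13346 genes tested, and a gene was called at an adjusted p below 0.05. The labels do not state whether replicate libraries came from different cultures, so p-values reflect only how these libraries vary, which may be technical variation. All 10 members passed the filter on low counts. Mycl passed it through the combination group alone and is kept out of counts of members, as is Mxd1, which leaves 8. FK228 versus control called 3 of these 8, against 68.8% of all genes. YF versus control called 0 of 8 (edgeR; 1 at an unadjusted p below 0.05, 1 by DESeq2 and 0 by limma-voom), against 32.6%. The combination versus control called 7 of 8, near the 77.4% of all genes. The combination versus YF called 6 of 8, 3 higher and 3 lower, against 70.6% (34.7% higher and 35.9% lower), and versus FK228 it called 7 of 8, against 52.9%. Comparisons with control share the 3 control libraries.

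**Figure D1:**
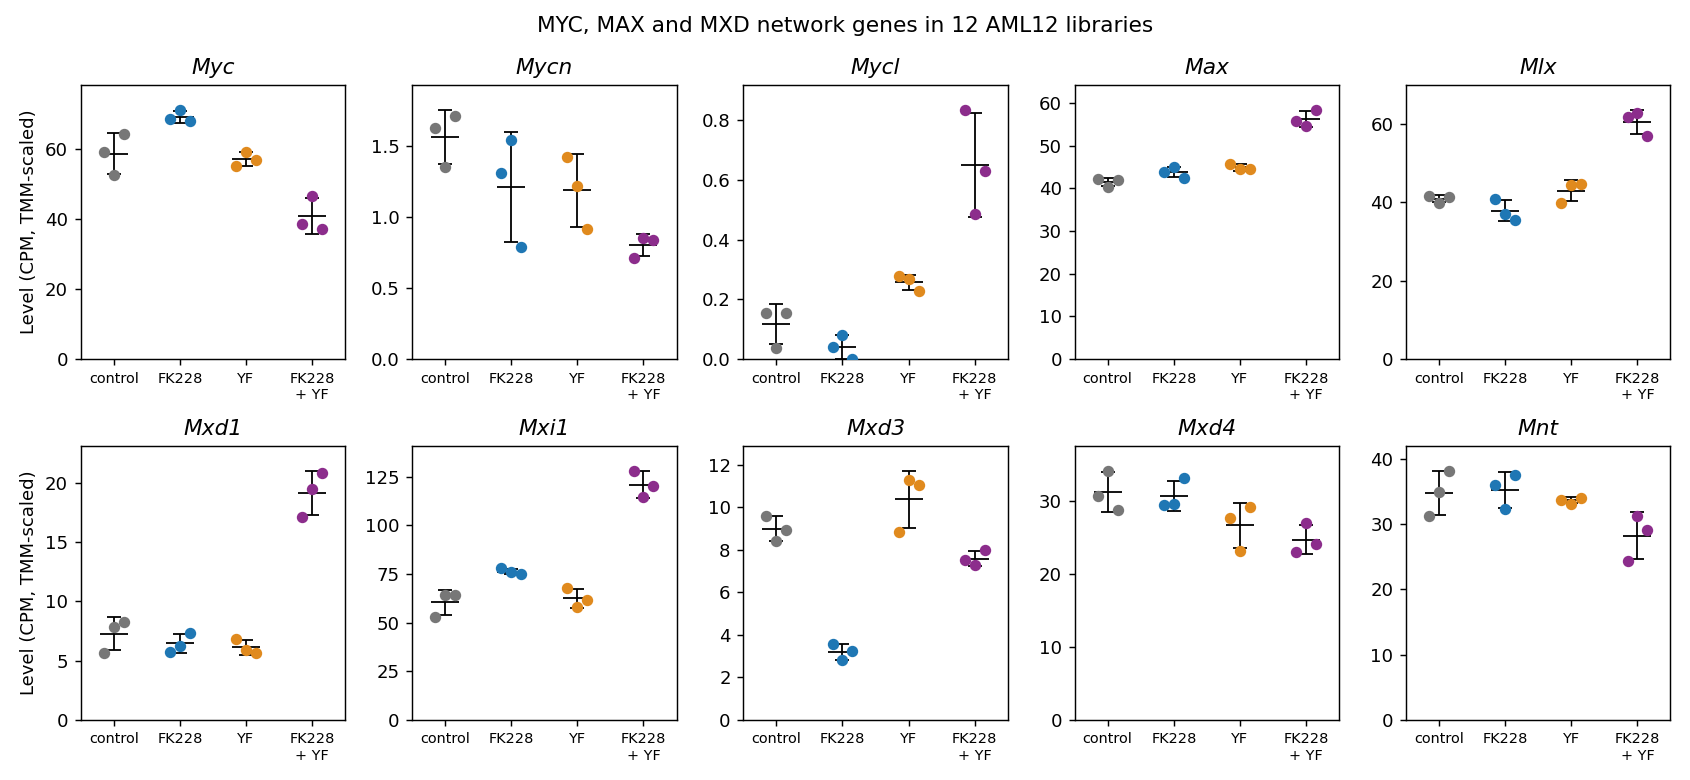
Level of each network gene in CPM (y axis, linear from 0) in the 4 groups (x axis). Points are single libraries and bars the mean ± SD of 3. Mxd1, Mxi1, Max and Mlx stand highest and Myc lowest in the combination group, while Mxd3 is lowest with FK228 alone.

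Myc, the main MYC gene of these cells (chromosome 15, 61985341 to 61990361), moved in opposite directions with FK228 alone and with both treatments. Its 3 libraries stood at 59.1, 52.6 and 64.2 CPM in control, 68.5, 71.2 and 68.1 under FK228, 55.2, 59.1 and 57.0 under YF, and 38.6, 46.7 and 37.1 with both. On this scale the FK228 libraries lay above every control library and the combination libraries below every library of the other 3 groups. In deposited TPM the FK228 libraries (30.88, 34.31 and 35.96) overlapped control (31.28, 27.88 and 32.27). FK228 raised Myc by 0.24 ± 0.08 on the log2 scale (adjusted p = 0.00996, edgeR), a call that ended without control replicate 2, the lowest control library (0.16, adjusted p = 0.0759). With both treatments Myc was lower than in control, at a log2 difference of -0.52 ± 0.08 (adjusted p = 5.01e-06), lower than with YF (-0.48 ± 0.08, adjusted p = 1.74e-05) and lower than with FK228 (-0.76 ± 0.08, adjusted p = 1.2e-07). YF alone gave -0.04 ± 0.08, with a 95% interval from -0.20 to 0.12. The FK228 effect in YF cells minus that in cells without YF, the interaction, was -0.72 ± 0.11 (adjusted p = 7.96e-05).

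The other MYC genes were scarce. Mycn, the paralogue best known from neural tissue, stood at 1.63, 1.35 and 1.71 CPM in control and 0.709, 0.848 and 0.839 with both treatments, and these groups did not overlap. The FK228 libraries (1.31, 1.54 and 0.786 CPM) and the YF libraries (1.42, 1.22 and 0.914 CPM) each overlapped control. Mycn fell by 0.96 ± 0.29 on the log2 scale with both (adjusted p = 0.00458, edgeR), from 121 counts over the control libraries to 58. Mycl, the remaining family member, had 9 counts over the control libraries, 3 under FK228, 20 under YF and 47 with both. The Mycl libraries of the combination group, at 20, 12 and 15 counts, lay above all others, which is given as a description, since the filter admitted Mycl through that group.

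Max and Mlx, the shared partners, rose with both treatments, and neither passed the test against control with one treatment alone. Max (chromosome 12, 76937269 to 76962323) stood at 42.1, 40.3 and 42.0 CPM in control, 43.9, 45.0 and 42.5 under FK228, 45.8, 44.4 and 44.4 under YF, and 55.7, 54.6 and 58.4 with both. Every combination library lay above every other library, and the lowest library of each single treatment lay above the highest of control. For FK228 that gap was narrow, and in deposited TPM its libraries (24.97, 27.18 and 27.76) overlapped control (27.79, 26.5 and 25.95). The log2 fold change of Max with both was 0.44 ± 0.06 against control (adjusted p = 4.75e-07, edgeR), 0.33 ± 0.06 against YF (adjusted p = 3.12e-05) and 0.36 ± 0.06 against FK228 (adjusted p = 2.18e-05). FK228 alone gave 0.08 ± 0.06 (adjusted p = 0.228) and YF alone 0.11 ± 0.06 (adjusted p = 0.137).

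Mlx (chromosome 11, 101086707 to 101092207) stood at 41.6, 39.9 and 41.3 CPM in control, 40.8, 37.1 and 35.6 under FK228, 40.0, 44.4 and 44.6 under YF, and 61.9, 62.8 and 57.0 with both. The first 3 groups overlapped, and the combination libraries stood apart above them. Its log2 fold change with both was 0.57 ± 0.07 against control (adjusted p = 1.17e-07, edgeR), and 0.68 ± 0.07 against FK228 (adjusted p = 5.2e-08). Mlx overlaps the gene Psmc3ip by 67 bases, and whether the counts used strand is not given in the sources used here.

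Mxd1, the first of the MXD repressors (chromosome 6, 86647044 to 86669234), was a low-level transcript outside the combination group. It stood at 5.66, 7.86 and 8.24 CPM in control, 5.75, 6.23 and 7.36 under FK228, 6.84, 5.87 and 5.64 under YF, and 17.1, 19.5 and 20.9 with both. The first 3 groups overlapped one another, and each combination library was more than 2 times the highest of the other libraries. The combination level was 2.64 times that of control (log2 fold change 1.4 ± 0.13), 3.13 times that of YF and 2.97 times that of FK228, given as the description by which the gene was chosen. FK228 alone stood at -0.17 ± 0.14 and YF alone at -0.25 ± 0.14 relative to control on the log2 scale. The lncRNA gene Gm38850 overlaps the Mxd1 locus by 9111 bases, so reads of the pair may not be told apart.

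Mxi1, an MXD repressor also called MXD2 (chromosome 19, 53310128 to 53373293), was the most abundant MXD transcript of the combination group. It stood at 53.0, 64.3 and 64.0 CPM in control, 77.9, 75.8 and 75 under FK228, 67.7, 58.2 and 61.4 under YF, and 128, 114 and 120 with both. YF libraries overlapped control, FK228 libraries lay above both of those groups, and combination libraries lay above all. The log2 fold change was 0.34 ± 0.07 under FK228 (adjusted p = 0.000388, edgeR), 0.05 ± 0.07 under YF (adjusted p = 0.672) and 1.00 ± 0.07 with both (adjusted p = 4.8e-11). FK228 raised Mxi1 by 0.95 ± 0.07 in YF cells, and the interaction of 0.62 ± 0.10 passed the test (adjusted p = 0.000156). RefSeq gives Mxi1 3 promoter windows, and counts per gene do not show which start was used. The lncRNA gene Gm30541 overlaps 16740 bases of the locus.

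Mxd3, an MXD gene known for its expression in S phase, was lowest with FK228 alone. It stood at 9.61, 8.44 and 8.94 CPM in control, 3.55, 2.79 and 3.22 under FK228, 8.85, 11.3 and 11 under YF, and 7.51, 7.27 and 7.97 with both. The FK228 libraries lay below all others, and the combination libraries lay just under control. Mxd3 fell by 1.5 ± 0.14 on the log2 scale with FK228 (adjusted p = 3.28e-09, edgeR), and by 0.46 ± 0.12 under FK228 in YF cells (adjusted p = 0.0019). Against control the combination gave -0.25 ± 0.12 (adjusted p = 0.0686). YF raised Mxd3 by 1.25 ± 0.14 in FK228-treated cells (adjusted p = 2.07e-07), and the interaction was 1.04 ± 0.18 (adjusted p = 0.000253). Among the proliferation markers, the S phase genes gave Pcna at 88.4 ± 4.36 CPM with FK228 and 109 ± 5.81 with both, and Mcm2 at 51.6 ± 1.70 and 54.9 ± 2.46, against 204 ± 31.3 and 124 ± 17.9 in control. The other 4 markers had lower means with both than with FK228. Mki67 averaged 39.4 CPM with FK228 and 25.6 with both, Top2a 62.0 and 42.9, Ccnb1 14.1 and 8.76, and Cdk1 40.6 and 32.1. Of the 6, 1 was higher and 4 lower with both than with FK228 (edgeR; 26.6% and 26.3% of all genes; median -0.44). The part of these genes in the level of Mxd3 was not tested. Mxd3 overlaps the gene Prelid1 by 103 bases.

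Mxd4 and Mnt, the repressors that are usually present in resting and in growing cells alike, were lower with both treatments by small amounts. Mxd4 stood at 30.8, 34.2 and 28.9 CPM in control, 29.5, 29.6 and 33.2 under FK228, 27.7, 23.2 and 29.2 under YF, and 23.1, 27 and 24.2 with both. The combination libraries lay below control and FK228 and overlapped YF. The log2 fold change of Mxd4 with both against control was -0.34 ± 0.09 (adjusted p = 0.00205, edgeR). YF alone gave -0.23 ± 0.09 (adjusted p = 0.0571), which passed with DESeq2 (-0.24, adjusted p = 0.0471). Mnt stood at 31.3, 34.9 and 38.2 CPM in control, 36.0, 32.3 and 37.6 under FK228, 33.7, 33.2 and 34.1 under YF, and 24.3, 31.3 and 29.2 with both. The lowest control and the highest combination library of Mnt overlapped narrowly. Mnt fell by 0.30 ± 0.09 with both against control (adjusted p = 0.00458), and its fall of 0.25 ± 0.09 against YF (adjusted p = 0.0166) was not called without combination replicate 1 (-0.16, adjusted p = 0.129).

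**Figure D2:**
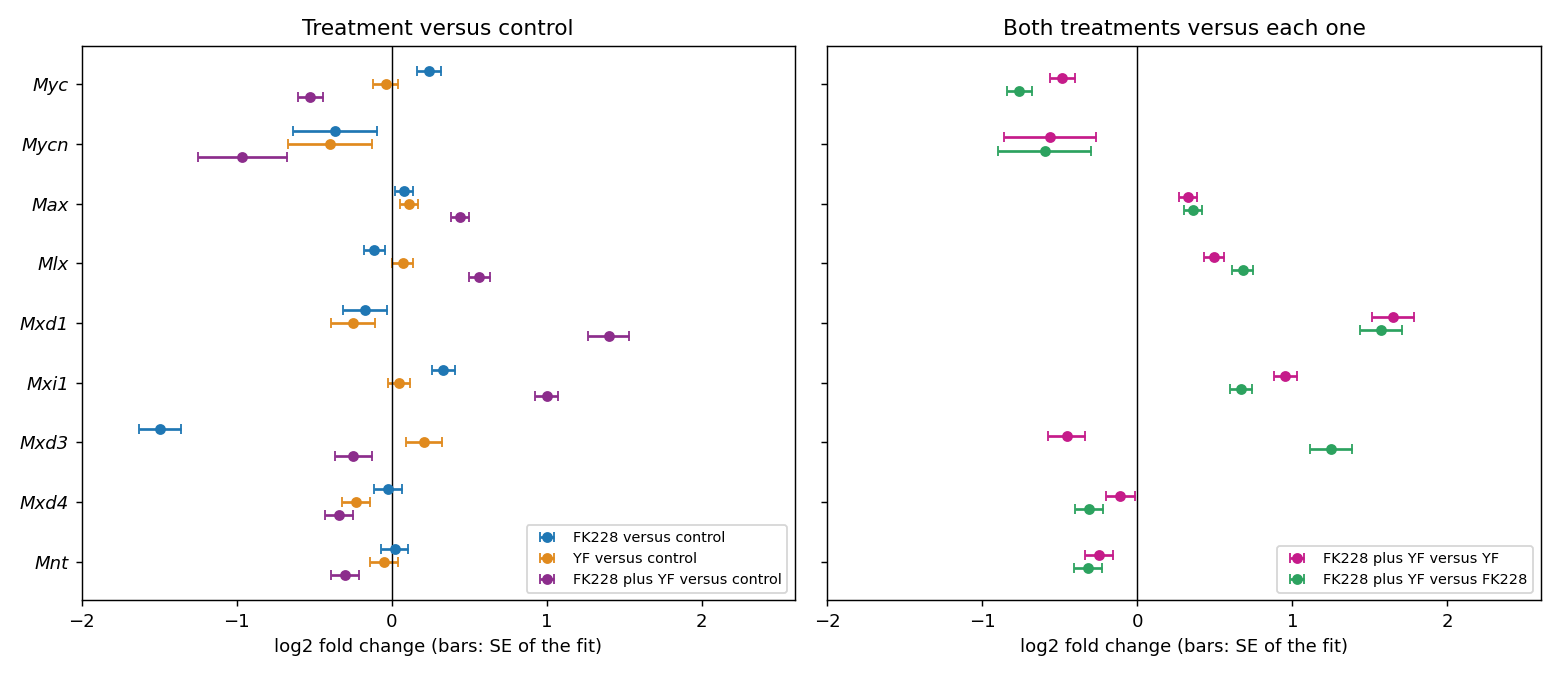
log2 fold change (x axis) of 9 network genes (y axis) against control (left) and of the combination against each single treatment (right), with the SE of the fit as bars. Mycl is left out for its low counts. With both treatments Mxd1, Mxi1, Max and Mlx lie to the right and Myc and Mycn to the left of 0, and Mxd3 lies near -1.5 under FK228 alone.

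Across the 8 counted members, the combination against control had 3 higher (Max, Mxi1 and Mlx) and 4 lower (Myc, Mycn, Mxd4 and Mnt), where 38.8% of all genes were higher and 38.6% lower. Their median log2 fold change was -0.27, against 0.005 for all genes tested. FK228 against control had 2 higher (Myc and Mxi1) and 1 lower (Mxd3), with a median of -0.002 against -0.015 for all genes. FK228 set directly against YF called 4 of 8 where 61.2% of all genes were called (27.8% higher and 33.3% lower), with Myc (0.28 ± 0.08) and Mxi1 (0.29 ± 0.07) higher and Mxd3 (-1.70 ± 0.13) and Mlx (-0.18 ± 0.07) lower with FK228. The call of Mlx there ended with RLE scaling (-0.14, adjusted p = 0.0811, edgeR), with no count filter, with DESeq2, in the compared groups alone and without any one of 5 libraries (FK228 replicate 2 or 3, YF replicate 2 or 3, combination replicate 2). Mxd4, not called there (0.20 ± 0.09, adjusted p = 0.0562), was called with RLE scaling (0.25, adjusted p = 0.0223), with no count filter, at 5 CPM in 3 libraries, with DESeq2, in the compared groups alone and without any one of 4 libraries (FK228 replicate 1 or 2, YF replicate 3, combination replicate 2). With DESeq2 4 of 8 members were again called. The interaction was called for 5 of 8, against 26.5% of all genes (11.1% positive and 15.3% negative). It was positive for Mxi1, Mxd3, Mlx and Max and negative for Myc.

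The makeup of the MAX partner transcripts follows from these values and is given as a description on the TPM scale. Summed TPM of Myc, Mycn and Mycl was 32.1, 28.6 and 33.1 in the control libraries and 19.7, 24.6 and 19.4 with both treatments. Summed TPM of Mxd1, Mxi1, Mxd3, Mxd4 and Mnt was 82.3, 93.0 and 83.5 in control and 103, 107 and 105 with both. The MYC genes therefore made up 26.7 ± 2.75% of the partner transcripts in control, 29.7 ± 1.28% under FK228, 27 ± 1.72% under YF and 16.8 ± 1.69% with both. Repressor transcripts per MYC transcript stood at 2.78 ± 0.414 in control, 2.37 ± 0.144 under FK228, 2.72 ± 0.229 under YF and 5.0 ± 0.576 with both (n = 3 each). The combination libraries, at 5.22, 4.35 and 5.43, lay above the highest of the others, 3.26. This separation is no test, since the repressor sum includes Mxd1, which was chosen for its high level in this group. Mxd1 gave 4.78 ± 0.527 TPM of that sum with both treatments and 1.86 ± 0.329 in control. The MYC sum includes Mycl, admitted by the filter through the same group, at 0.223 ± 0.0404 TPM there. Mxi1 supplied 51.9 to 58.2% of the repressor TPM in the combination libraries and 31.8 to 36.6% in control.

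**Figure D3:**
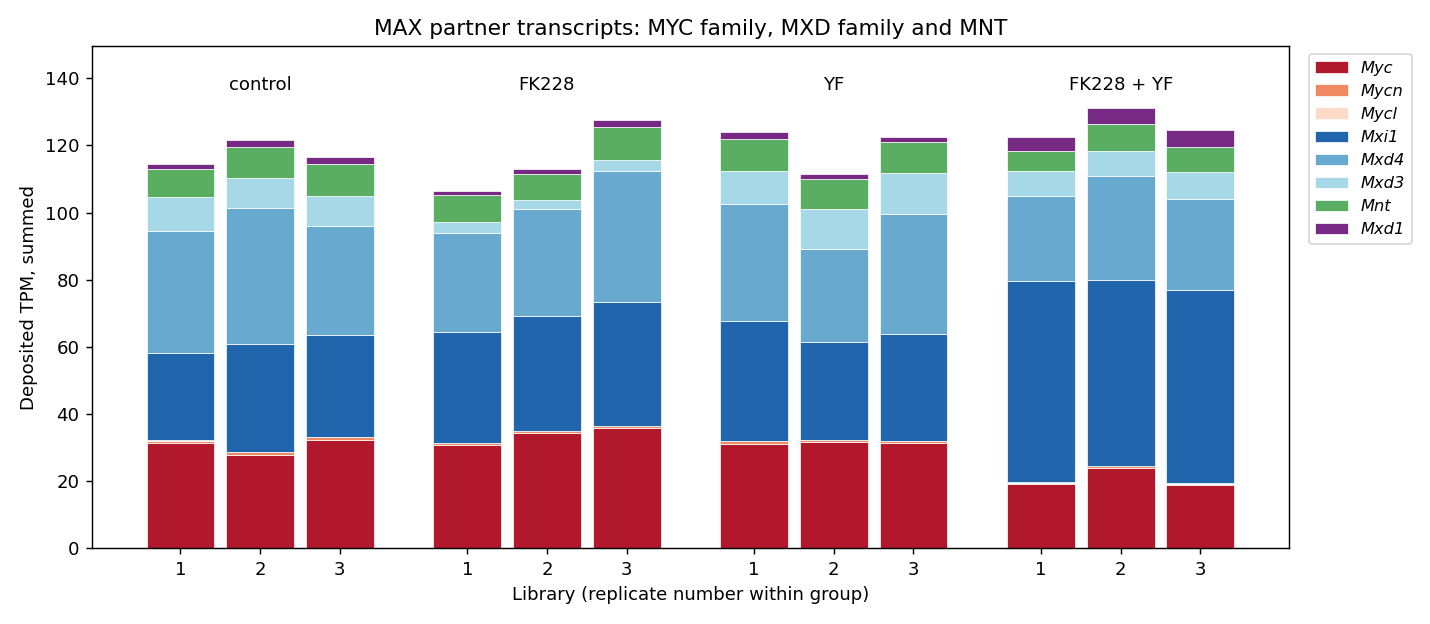
Deposited TPM of the MAX partners (y axis) stacked by gene for each of the 12 libraries (x axis, by group and replicate number). The red MYC portion is smallest and the dark blue Mxi1 portion largest in the 3 combination libraries, and the Mxd1 cap is thickest there.

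Genes outside the network whose profile over the 12 libraries was closest to that of Mxd1 were Cnnm4, Agfg2, Xkr8, Sema6c and Thop1. Likeness was the root mean square difference of log2 CPM after centring each gene on its mean, over 10188 tested genes with a mean of 5 CPM or more. It was 0.26 for Cnnm4 and 0.30 for Thop1, where the median gene differed by 0.73 and Mxd1 itself ranged over 1.87. Cnnm4 averaged 10.03 CPM in control, 10.7 under FK228, 10.6 under YF and 21.9 with both. Thop1, which encodes a peptidase, averaged 77.6, 77.4, 78.6 and 152 CPM. Among the genes closest to Myc were Map3k20 (0.09), Phldb2 (0.11), Myo7a (0.11) and Amotl2 (0.11), where Myc ranged over 0.94 and the median gene differed by 0.38. Phldb2 averaged 139 CPM in control, 149 under FK228, 136 under YF and 92.0 with both.

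Genes that MYC is known to activate were lower more often than higher with FK228 and with both treatments. Of 45 such genes, nucleolar and metabolic ones for the most part, 29 were lower and 4 higher with FK228 (edgeR; 35.5% and 33.2% of all genes), with a median log2 fold change of -0.36 against -0.02 for all genes, while Myc itself was higher. With YF alone 2 were lower and 8 higher (14.6% and 18% of all genes; median 0.07), and with both treatments 24 were lower and 8 higher (38.6% and 38.8% of all genes; median -0.24). Between the combination and FK228, where Myc fell by 0.76 on the log2 scale, 9 were lower and 16 higher (26.3% and 26.6% of all genes, median 0.04). The part of Myc in the changes of these 45 genes was not tested, and MYC protein was not measured. Odc1, the rate-limiting enzyme of polyamine synthesis, rose from 145 ± 14.9 CPM in control to 296 ± 1.76 under FK228, 204 ± 9.59 under YF and 565 ± 25.8 with both. Its log2 fold change with both was 1.96 ± 0.07 (adjusted p = 2.94e-16). Cdk4, a cyclin-dependent kinase, went from 852 ± 26.1 CPM in control to 490 ± 39.3 under FK228, 649 ± 27.5 under YF and 329 ± 12.5 with both. Dkc1, the pseudouridine synthase dyskerin, fell from 33.5 ± 4.72 CPM to 14.8 ± 1.58 under FK228 and 13.9 ± 0.628 with both. Rrp12, a ribosome assembly factor, was at 40.2 ± 7.75 CPM in control, 30.2 ± 2.27 under FK228 and 71.4 ± 1.92 with both, and rose by 1.24 ± 0.10 between the last 2 groups (adjusted p = 4.05e-08).

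Of 9 genes that MYC is known to repress, 7 were tested. With FK228 5 were higher and none lower (edgeR; 33.2% and 35.5% of all genes; median 0.48), and with both treatments 4 were higher and 1 lower (38.8% and 38.6%; median 0.35). With YF alone 2 were higher and 1 lower (18% and 14.6%; median 0.02). Between the combination and FK228, 2 were higher and 3 lower (26.6% and 26.3%; median -0.18). Cdkn2b, which encodes the CDK inhibitor p15, went from 49.5 ± 2.83 CPM in control to 97.7 ± 4.18 under FK228, 50.1 ± 4.68 under YF and 99.1 ± 2.28 with both. Its log2 fold change against control was 0.98 ± 0.07 under FK228 and 1.00 ± 0.07 with both. Whether Myc had a part in the changes of these genes was not tested. Fth1, the ferritin heavy chain, gave 1.27 ± 0.07 with FK228 (adjusted p = 9.18e-13). Ndrg2, a gene near 0 in control at 0.271 ± 0.0394 CPM, reached 12.9 ± 1.14 under FK228, 4.25 ± 1.04 under YF and 17.9 ± 1.37 with both.

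The SIN3 corepressor, through which MXD proteins and MNT act, was measured by 15 subunit genes outside the HDACs. With FK228 9 were lower and 1 higher (35.5% and 33.2% of all genes; median -0.21), and with YF 2 were lower and 1 higher (14.6% and 18%; median -0.03). With both 7 were lower and 6 higher (38.6% and 38.8%; median 0.05). The scaffold gene Sin3a stood at 76.7 ± 1.39 CPM in control and 85.1 ± 1.28 with both (0.15 ± 0.06, adjusted p = 0.023, edgeR), and its paralogue Sin3b at 82.1 ± 6.89 and 65.1 ± 2.50 (-0.34 ± 0.07, adjusted p = 8.55e-05). Sap130, a SIN3-associated subunit, went from 61.5 ± 2.71 CPM in control to 55.4 ± 5.98 under FK228, 69.6 ± 0.729 under YF and 92.5 ± 1.28 with both, and its interaction was 0.56 ± 0.09 (adjusted p = 0.000152). Brms1 stood at 96.4 ± 4.47 CPM in control, 104 ± 8.42 under FK228, 96.0 ± 4.30 under YF and 150 ± 4.33 with both, with an interaction of 0.53 ± 0.09 (adjusted p = 0.000147).

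Among 17 coactivators and partners of MYC, 10 were lower and 5 higher with FK228 (35.5% and 33.2% of all genes; median -0.33). As many were lower and higher with both treatments (38.6% and 38.8% of all genes; median -0.39), while YF alone lowered 2 and raised 3 (14.6% and 18% of all genes; median -0.01). Ruvbl1, a helicase of the TIP60 complex, fell by 1.15 ± 0.07 on the log2 scale with FK228 (adjusted p = 2.69e-12, edgeR). Its paralogue Ruvbl2 went the other way, by 0.355 ± 0.053 with FK228 (adjusted p = 5.36e-06) and 0.736 ± 0.053 with both (adjusted p = 4.68e-11). The acetyltransferase gene Kat2a fell by 0.89 ± 0.06 with FK228 (adjusted p = 7.62e-11). Paf1 and Ctr9, subunits of the PAF elongation complex, rose. Ctr9 went from 67.4 ± 2.61 CPM in control to 82.0 ± 2.6 under FK228, 83.3 ± 1.48 under YF and 150 ± 5.84 with both, with an interaction of 0.57 ± 0.08 (adjusted p = 1.79e-05). Paf1 went from 73.3 ± 2.71 to 113 ± 6.03, 87.4 ± 2.59 and 165 ± 5.14 CPM in the same order.

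**Figure D4:**
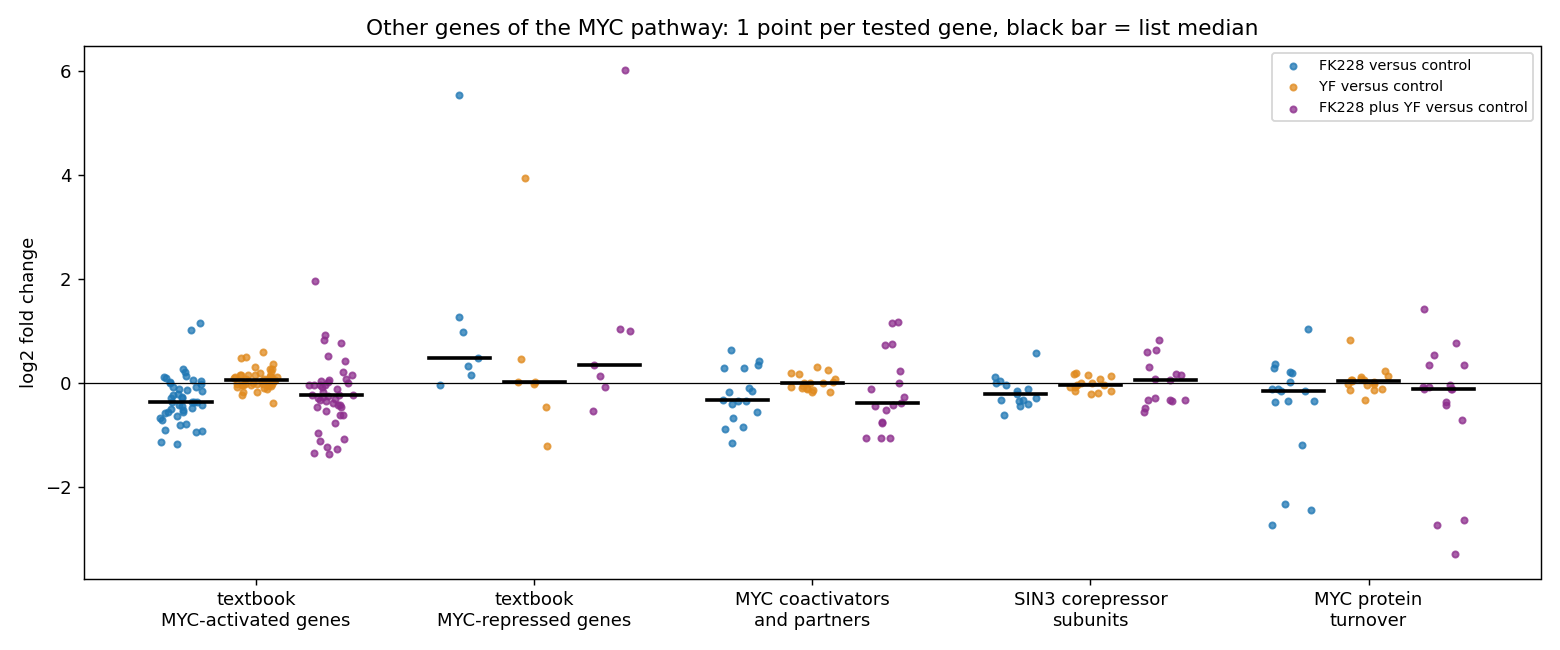
log2 fold change against control (y axis) of tested genes in 5 lists of the MYC pathway (x axis), coloured by treatment, 1 point a gene, with the list median as a black bar. The MYC-activated genes have medians of -0.36 under FK228, 0.07 under YF and -0.24 with both, and Odc1 is their highest point with both.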

How the data were processed

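The authors deposited estimated counts per gene and library, not scaled to library size, per the file headers. The authors also deposited TPM values, scaled for transcript length and library size, per the file headers. GRCm38.p6 is the build in the submitters' processing notes, which list RSEM 1.2.12, HISAT2 2.0.4, DESeq2 1.4.5 and Bowtie2 2.2.5 with no roles. What annotation, gene filter and strand setting applied, the sources used here do not say. Estimated counts were rounded (16.6% were not whole). Genes were filtered with edgeR's filterByExpr, which left 13346, libraries were scaled by TMM, and a robust quasi-likelihood model with 1 term per group was fitted to the 12 libraries (edgeR 4.0.16, limma 3.58.1, R 4.3.3), with an SE from the fitted coefficient and its F value. The scripts were tested on simulated counts. TPM served to compare levels between genes and to describe the makeup of the MAX partner transcripts in the 4 groups. Positions came from RefSeq by gene ID (18980 of 19037 matched).

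Members and lists were chosen with earlier results of these data known. Named were the 10 members, genes taken from the 4 called ones with the largest change per list and comparison (mean of 1 CPM or more; not all 4 are named), the 5 genes most like Mxd1 or Myc (1 of them is not reported here), and cell type markers. Some examples were taken in further groups once named, and Sin3a and Mlxip were named as central genes after their values were seen. Alternatives were RLE scaling (DESeq2 size factors), no count filter, 5 CPM in 3 libraries, DESeq2 1.42.0, limma-voom, the compared groups alone, a replicate block and leaving out each library.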

Additional observations from a re-analysis of the deposited data

Results flagged for a closer look

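The FK228 effect differed between cells with and without YF for 5 of the 8 counted members by a test of the interaction (edgeR, adjusted over 13346 genes). Of all genes 26.5% were called in this test, 11.1% with a positive and 15.3% with a negative difference. It differed by -0.72 for Myc (adjusted p = 7.96e-05), which FK228 raised without YF and lowered with it, by 0.62 for Mxi1 (adjusted p = 0.000156) and by 0.61 for Mlx (adjusted p = 8.8e-05), on the log2 scale. The difference was 1.04 for Mxd3 (adjusted p = 0.000253), which FK228 lowered in both settings. For Max it was 0.25 (adjusted p = 0.0295), and that call ended when any of 5 single libraries was left out.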

How the results depend on the processing

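Of the changes of members, none moved to the other side of the threshold or changed sign with limma-voom or with a replicate block. The block left 3, 0, 7, 6, 7, 4 and 5 members called in the 7 comparisons, as without it, and 9015 against 9181 genes in FK228 versus control. Deviations of same-numbered libraries from their group means correlated above 0.1 in 1 of 18 pairs (-0.30 to 0.12). Differently numbered libraries were not compared, so this check cannot settle whether replicate numbers pair the samples. In YF versus control 0 members were called, and 1 (Mxd4) with RLE scaling, with no count filter and with DESeq2, and 0 to 1 when single libraries were left out. Changes near 0 changed sign. Mxd4 in FK228 versus control (-0.02) became 0.006 with RLE scaling, 0.01 at 5 CPM, 0.006 with DESeq2 and 0.011 in the compared groups alone, and ranged from -0.081 to 0.042 over left-out libraries. Max in FK228 versus YF (-0.04) became 0.008 with RLE scaling and with DESeq2, and 0.006 in the compared groups alone. Over left-out libraries Mnt ranged from -0.053 to 0.095 in FK228 versus control and from -0.119 to 0.023 in YF versus control, Myc from -0.112 to 0.031 and Mxi1 from -0.039 to 0.096 in YF versus control, Mycn from -0.15 to 0.26 and Mxd1 from -0.03 to 0.18 in FK228 versus YF, and Mycn from -0.43 to 0.004 in the interaction. The cause was not tested. The interaction of Max ranged from 0.22 to 0.26 over left-out libraries and was not called without control replicate 3, FK228 replicate 3, YF replicate 2 or 3, or combination replicate 3, nor with no count filter (0.23, adjusted p = 0.0943). At 5 CPM in 3 libraries Mycn and Mycl were not tested, and Mycl had too few counts for more than a description.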

Other observations

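Of 4 tested genes in the glucose-sensing and MGA arm of the network, 2 were higher and 1 lower with both treatments (38.8% and 38.6% of all genes). Mlxipl, which encodes the carbohydrate response factor ChREBP, stood at 11.7 ± 0.957 CPM in control, 12 ± 0.973 under FK228, 11.5 ± 2.2 under YF and 14.5 ± 1.35 with both, a log2 fold change with both of 0.31 ± 0.12 (adjusted p = 0.0219, edgeR). Mlxip, the other MLX partner of this kind, gave -0.03 ± 0.08 (adjusted p = 0.751). Mga, a large MAX partner, went from 46.5 ± 5.30 CPM to 37.0 ± 2.63 with both (-0.33 ± 0.09, adjusted p = 0.00206). Txnip, a classic target of MLXIP and MLXIPL, rose from 166 ± 19.6 CPM in control to 359 ± 6.15 under FK228 and 407 ± 28.6 with both, and stood at 158 ± 12.3 with YF. Its log2 fold change was 1.11 ± 0.08 under FK228 (adjusted p = 9.26e-11).

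Of 17 genes that act on MYC protein, 8 were lower and 4 higher with FK228, where 68.8% of all genes were called. With YF 1 was lower and 2 were higher, where 32.6% of all genes were called. Plk1, a mitotic kinase reported to stabilise MYC, went from 119 ± 9.76 CPM in control to 17.9 ± 1.08 under FK228, 116 ± 4.24 under YF and 12.1 ± 0.775 with both, alongside the proliferation markers. Fbxw7, the ubiquitin ligase subunit that marks MYC for degradation, stood at 8.03 ± 0.697 CPM in control, 9.26 ± 0.782 under FK228, 8.52 ± 1.56 under YF and 13.7 ± 0.334 with both. FK228-treated cells had a log2 fold change of 0.56 ± 0.12 in Fbxw7 under YF (adjusted p = 0.000431). MYC protein was not measured.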
